A study of Mus musculus with 9 samples.

Results

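The S100 genes encode small proteins that bind calcium through EF-hand loops and then expose a surface for a partner protein. Of 17 genes with an S100 name in the table of 55536 genes, 8 are described here: S100a1, S100a4, S100a6, S100a8, S100a9, S100a10, S100a11 and S100a13. They were chosen by name with their levels in these 9 libraries already known, so their levels and the differences between groups are a description. Where a call rule is applied to them below, it serves only to set their count beside the share of all genes that pass it, no p-value is given for them, and nothing rests on those counts. All 8 passed the filter on low values (1 TPM or more in at least 3 of the 6 libraries compared) in each comparison. The lowest value of any of the 8 was 3.97 TPM, for S100a4 in 1 library, and the highest value of any S100 gene left out was 0.53 TPM, for S100g.

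Per the labels, RNA was sequenced from GFP+ leukemia cells that were sorted from bone marrow of mice with acute myeloid leukemia (AML), with 9 libraries in 3 groups of 3. The leukemia came from c-kit+ cells of WT or IRF7-/- mice that were infected with a retrovirus carrying the MLL-AF9 fusion oncogene and GFP. All 3 groups therefore carry MLL-AF9, and all were grown in C57BL/6J recipients that were 6 to 8 weeks old, were not irradiated, received 1000000 cells each and were sacrificed at day 18. WT c-kit- is the fraction of the control leukemia (AML-WT) without c-kit, a surface receptor of immature blood cells, and WT c-kit+ the fraction with it. IRF7-/- c-kit+ is the c-kit+ fraction of the leukemia labelled as lacking IRF7 (AML-IRF7-/-), a transcription factor of the interferon response. No IRF7-/- c-kit- library was analysed here. The sources do not say whether the 3 libraries of a group came from separate mice or separate leukemias, so their spread may be technical.

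Levels are in TPM, a measure of transcript abundance corrected for the length of the gene and for the total of the library, which allows levels of different genes to be set side by side. TPM keep no read numbers, so the depth is unknown, and the error of a value can be read only from the 3 libraries of its group. Irf7 was at 23.5, 22.3 and 32.3 TPM in WT c-kit-, at 5.31, 3.91 and 3.36 TPM in WT c-kit+, and at 12.8, 5.97 and 7.95 TPM in the libraries labelled IRF7-/- c-kit+. The last 3 lay above every WT c-kit+ library. The IRF7-/- mice carry a cassette in place of exons 2 and 3 of Irf7, and a value summed over the whole gene does not show whether those exons were read, so these TPM do not check the label in either direction. The study examined IRF7 in this model by qRT-PCR and Western blot, which were not analysed here. Kit was at 0.52 to 3.03 TPM in WT c-kit- and at 50.7 to 85.7 TPM in the other 6 libraries, as sorted. Markers of erythroid, B cell and stromal types summed to at most 38.0 TPM in any library, against 2840.2 to 23032 TPM for 4 genes of primary neutrophil granules. T and NK cell markers summed to 0.91 to 2.83 TPM in WT c-kit- and to 91.2 to 194 TPM in the c-kit+ groups, with Cd3e, Cd3g and Klrb1c under 1 TPM in all 9 libraries. In bulk RNA, fewer cells of a type and less RNA per cell cannot be told apart.

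S100A8 and S100A9 form a heterodimer, calprotectin, which makes up much of the cytosolic protein of neutrophils and is plentiful in monocytes. Outside the cell it binds zinc and manganese and acts on the receptors TLR4 and RAGE. S100A10 does not respond to calcium and is held in a tetramer with annexin A2 at membranes, S100A11 binds annexin A1, S100A6 binds the calcyclin binding protein and annexins, and S100A4 binds the heavy chain of nonmuscle myosin. S100A1 is best known for tuning calcium release in muscle, and S100A13 for the release of growth factors that lack a signal peptide.

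The 8 genes lie on chromosome 3 in the GENCODE M21 annotation of GRCm38 (the build behind the deposited values is not given in the sources used here). S100a1, S100a13, S100a4, S100a6, S100a8 and S100a9 stand within 185 kb, from 90511034 to 90695721, and they were the 6 of 13 protein-coding genes there that reached 1 TPM in any library. S100a8 (90668978 to 90670035, plus strand) and S100a9 (90692632 to 90695721, minus strand) are 22.6 kb apart with no protein-coding gene between them. S100a1 (90511034 to 90514392, minus strand) and S100a13 (90514435 to 90524581, plus strand) are transcribed away from each other, 42 bases apart. S100a4 (90603771 to 90606045, plus strand) and S100a6 (90612882 to 90624181, plus strand) are separated by 6.84 kb that hold S100a5. S100a11 (93520488 to 93526287) and S100a10 (93555080 to 93564643), both on the plus strand, are a pair 28.8 kb apart, beyond 60 other protein-coding genes.

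The promoters of 4 genes are shown because these had the largest differences between groups and went in both directions: S100a8 and S100a9 were highest in WT c-kit+, S100a4 and S100a6 in WT c-kit-. Each runs over 280 bases, from 250 before the RefSeq start of the gene to 30 after it, on GRCm38.p6. The RefSeq start of S100a8 lies within the GENCODE bounds given above. Of the 8 genes, 7 had an entry, and S100a10 had none. Capitals mark matches, on either strand, to the TATA box letters TATAAA, to the C/EBP letters TGNNGNAAG, TGNNGNAAT, TTNNGNAAG or TTNNGNAAT, or to the PU.1 letters GAGGAA.
S100a8, chr3:90668821-90669100, plus strand: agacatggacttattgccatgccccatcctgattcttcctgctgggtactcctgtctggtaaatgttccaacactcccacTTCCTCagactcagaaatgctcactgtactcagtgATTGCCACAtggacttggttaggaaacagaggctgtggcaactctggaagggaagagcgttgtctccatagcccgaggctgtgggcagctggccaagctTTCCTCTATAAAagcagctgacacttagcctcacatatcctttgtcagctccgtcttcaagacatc
S100a9, chr3:90695692-90695971, minus strand: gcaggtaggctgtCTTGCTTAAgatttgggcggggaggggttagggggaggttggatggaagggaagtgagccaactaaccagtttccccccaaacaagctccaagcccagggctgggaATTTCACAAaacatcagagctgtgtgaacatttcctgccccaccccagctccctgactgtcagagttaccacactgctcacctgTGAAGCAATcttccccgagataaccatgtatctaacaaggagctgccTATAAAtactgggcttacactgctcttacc
S100a4, chr3:90603520-90603799, plus strand: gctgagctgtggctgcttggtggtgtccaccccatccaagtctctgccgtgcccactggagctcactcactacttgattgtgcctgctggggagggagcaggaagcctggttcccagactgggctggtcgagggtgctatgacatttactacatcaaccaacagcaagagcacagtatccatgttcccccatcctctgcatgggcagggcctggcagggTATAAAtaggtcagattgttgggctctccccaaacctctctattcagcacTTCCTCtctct
S100a6, chr3:90612644-90612923, plus strand: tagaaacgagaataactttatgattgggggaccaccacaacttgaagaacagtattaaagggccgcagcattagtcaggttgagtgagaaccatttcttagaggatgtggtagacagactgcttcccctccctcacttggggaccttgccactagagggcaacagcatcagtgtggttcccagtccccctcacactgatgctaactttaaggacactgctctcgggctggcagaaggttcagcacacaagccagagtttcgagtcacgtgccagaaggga

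Among 32851 promoters of the same length, 13.1% held the TATA box letters, 43.5% the C/EBP letters and 26.0% the PU.1 letters, so a C/EBP or PU.1 match was common. S100a8 had a TATA box 30 to 25 bases before the start, with a PU.1 match directly before it, a second PU.1 match and 1 C/EBP match. S100a9 had 3 C/EBP matches and no PU.1 match, and its TATA box letters began at the RefSeq start itself. S100a4 had a TATA box 31 to 26 bases before the start, no C/EBP match, and a PU.1 match only after the start. The S100a6 window held none of the 3 motifs. Of the promoters not shown, S100a11 had 1 PU.1 match, and S100a1 and S100a13, whose windows overlap, shared 1 C/EBP match. These matches are letters in a window, and no binding was measured.

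The calprotectin genes were the most abundant S100 genes of the control leukemia. S100a8 was at 1959.9, 2406 and 8875 TPM in WT c-kit- libraries 1, 2 and 3. It was at 32009.7, 17013 and 24551 TPM in WT c-kit+ libraries 1, 2 and 3. In the libraries labelled IRF7-/- c-kit+ it was at 545, 771 and 524 TPM. The 3 groups did not overlap, and the libraries labelled IRF7-/- c-kit+ were the lowest.

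S100a9 followed S100a8 library by library. It was at 2979, 3702 and 15307 TPM in WT c-kit-, at 53539, 26183 and 39286 TPM in WT c-kit+, and at 778, 1206 and 793 TPM in the libraries labelled IRF7-/- c-kit+. The ratio of S100a9 to S100a8 stayed between 1.43 and 1.72 in all 9 libraries, while the level of each gene differed many times over. In WT c-kit+ libraries 1 and 3, S100a9 was the most abundant gene of the whole table, and in WT c-kit+ library 2 and WT c-kit- library 3 it was second to mt-Atp8.

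The spread within WT c-kit- came from 1 library. In its library 3, S100a8 was 4.07 times and S100a9 4.58 times the mean of libraries 1 and 2, so that the coefficient of variation of the group was 87.7% for S100a8 and 94.4% for S100a9. Genes of later neutrophil stages were also higher there, with Ltf, the iron-binding lactoferrin of secondary granules, at 5.55 times, Camp, an antimicrobial peptide, at 4.35 times and Cxcr2, a chemokine receptor, at 5.10 times that mean. Mmp8, another gene of those stages, was at only 1.20 times. The primary granule genes Elane, Mpo, Prtn3 and Ctsg were at 0.780 to 0.900 times. Kit was 3.54 times and Cebpe 2.65 times the mean, while the monocyte receptor gene Csf1r was at 0.931 times. The ratio of Kit is one of low values, at 0.52 to 3.03 TPM in this group. S100a11 was at 1.66 times, whereas S100a4, S100a6 and S100a10 were between 0.907 and 1.11 times. Their part in the S100 values of this library was not tested.

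**Figure D1:**
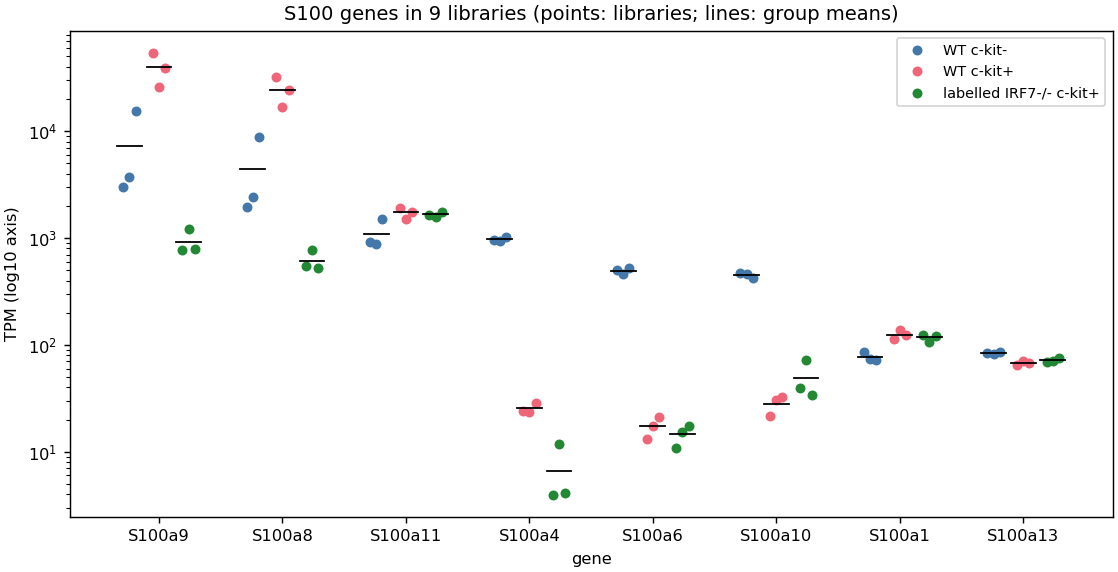
TPM on a log10 axis of the 8 S100 genes in each of the 9 libraries, with points for libraries 1 to 3 of each group from left to right and a black line for the group mean. S100a8 and S100a9 ran from 524 TPM to 53539 TPM, S100a4, S100a6 and S100a10 stood at 419 TPM or above in WT c-kit- and at 72.4 TPM or below elsewhere, and S100a1 and S100a13 stayed between 65.1 and 137 TPM.

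S100a4, S100a6 and S100a10 were highest in WT c-kit- in place of WT c-kit+. S100a4, made by monocytes and migrating cells, was at 967, 944 and 1031 TPM in WT c-kit-. It was at 23.9, 23.8 and 28.5 TPM in WT c-kit+ and at 3.97, 11.8 and 4.14 TPM in the libraries labelled IRF7-/- c-kit+. The 3 groups did not overlap, and the spread was widest in the last, where library 2 was 2.96 times library 1. Gm42674, a gene model that overlaps S100a4 on the same strand, was listed at 0 in all 9 libraries.

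S100a6, or calcyclin, a gene first known from growth-stimulated cells, was at 499, 458 and 529.8 TPM in WT c-kit-. It was at 13.2, 17.3 and 21.3 TPM in WT c-kit+ and at 10.8, 15.3 and 17.5 TPM in the libraries labelled IRF7-/- c-kit+. The c-kit+ groups overlapped, and both lay far below WT c-kit-.

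S100a10 was at 467, 458 and 419 TPM in WT c-kit-, at 21.5, 30.4 and 32.3 TPM in WT c-kit+, and at 39.1, 72.4 and 34.3 TPM in the libraries labelled IRF7-/- c-kit+. It was the only one of the 3 that was lowest in WT c-kit+, where all its libraries were below the libraries labelled IRF7-/- c-kit+. The gap was narrow, between 32.3 and 34.3 TPM, and the library at 72.4 TPM stood well above the rest of its group.

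The other 3 genes differed less. S100a11 was at 917, 886 and 1498 TPM in WT c-kit-, at 1925, 1511 and 1767 TPM in WT c-kit+, and at 1658, 1569 and 1770.4 TPM in the libraries labelled IRF7-/- c-kit+. The c-kit+ groups overlapped, and WT c-kit- lay below both. A pseudogene copy, S100a11-ps, was listed at 0 in all 9 libraries.

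S100a1 was at 85.1, 74.6 and 71.5 TPM in WT c-kit-, at 113, 137 and 124 TPM in WT c-kit+, and at 123, 107 and 122 TPM in the libraries labelled IRF7-/- c-kit+. Its divergent neighbour S100a13 had the narrowest range of the 8, at 83.3, 81.8 and 86.6 TPM, then 65.1, 70.2 and 67.3 TPM, then 69.0, 71.2 and 75.6 TPM in the same order of groups. S100a1 was lowest and S100a13 highest in WT c-kit-, so the pair differed in opposite directions from WT c-kit-. For both genes the c-kit+ groups overlapped.

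The order of the 8 genes by mean level differed between the groups. In WT c-kit- it was S100a9, S100a8, S100a11, S100a4, S100a6, S100a10, S100a13 and S100a1. In WT c-kit+ it was S100a9, S100a8, S100a11, S100a1, S100a13, S100a10, S100a4 and S100a6. In the libraries labelled IRF7-/- c-kit+ S100a11 came first, followed by S100a9, S100a8, S100a1, S100a13, S100a10, S100a6 and S100a4. Neighbours whose libraries overlapped were S100a9 with S100a8, S100a11 with S100a4, S100a6 with S100a10 and S100a13 with S100a1 in WT c-kit-. They were S100a9 with S100a8 and S100a10 with S100a4 in WT c-kit+, and S100a13 with S100a10 and S100a6 with S100a4 in the libraries labelled IRF7-/- c-kit+.

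As a share of the library total, the 8 genes took 0.806%, 0.912% and 2.82% in WT c-kit-, 8.87%, 4.55% and 6.65% in WT c-kit+, and 0.325%, 0.386% and 0.337% in the libraries labelled IRF7-/- c-kit+. S100a8 and S100a9 made up 62.1% to 86.9% of that sum in WT c-kit-, 96.0% to 97.5% in WT c-kit+, and 39.4% to 51.7% in the libraries labelled IRF7-/- c-kit+. The other 6 genes summed to 2902 to 3636 TPM, 1790.0 to 2162 TPM and 1847 to 2024 TPM in the same order, so the c-kit+ groups overlapped in that sum.

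**Figure D2:**
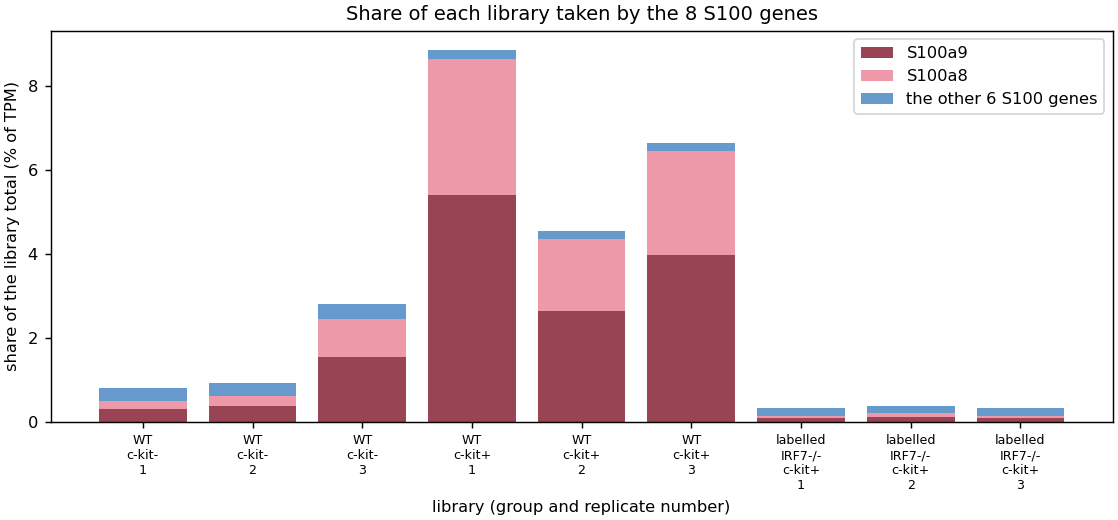
Share of the library total, in percent of TPM, taken by S100a9, by S100a8 and by the sum of the other 6 S100 genes, with 1 stacked bar for each library. WT c-kit+ libraries stand highest, from 4.55% to 8.87%, and the libraries labelled IRF7-/- c-kit+ lowest, from 0.325% to 0.386%.

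WT c-kit+ was compared with WT c-kit- to see how the c-kit+ fraction of the control leukemia differs from the rest of it. S100a8 and S100a9 were higher in WT c-kit+, and S100a4, S100a6 and S100a10 were lower. Differences are log2 fold changes of TPM + 1 from limma with their standard error (SE), and a gene was called when the change was at least 1 in size with an adjusted p under 0.05 over all genes tested. S100a8 had a log2 fold change of 2.77 (SE 0.58) and S100a9 of 2.78 (SE 0.64), or 5.56 and 5.41 times the mean TPM of WT c-kit-. Without WT c-kit- library 3 these were 3.45 and 3.52, still higher in every WT c-kit+ library. S100a4 was at −5.22 (SE 0.08), S100a6 at −4.78 (SE 0.16) and S100a10 at −3.97 (SE 0.15). S100a1 (0.69, SE 0.10), S100a11 (0.69, SE 0.22) and S100a13 (−0.31, SE 0.06) were not called. Of the 8 genes, 2 were called higher and 3 lower, where 4.83% and 9.61% of the 13261 genes tested were. The libraries of both groups did not overlap for any of the 8, as for 54.4% of all genes. The median log2 fold change was 0.19 for the 8 genes and −0.08 for all genes tested.

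Some marker genes of other stages also differed between these groups, and not all genes of a list went the same way. The sum of 9 genes of later neutrophils was 1621 to 8089 TPM in WT c-kit- and 14679 to 27524 TPM in WT c-kit+, with 2 of 9 called higher and 1 lower, and the 4 primary granule genes were all called higher. The sum in WT c-kit+ was mostly Camp and Ngp, at means of 8553 and 10420 TPM, which were the 2 called higher. Mmp8 was called lower (log2 fold change −3.79), Retnlg was at −1.91, Mmp9 at −0.73 and Cxcr2 at −0.05, and these 3 were not called, so the sum does not speak for all 9 genes. The sum of 4 monocyte genes was 3512 to 4116 TPM in WT c-kit- and 1940.0 to 2178 TPM in WT c-kit+, with 3 of 4 called lower. Of 4 macrophage genes, Adgre1 was called lower (log2 fold change −1.35). C1qa, C1qb and C1qc were called higher, at low means of 2.67 to 3.77 TPM in WT c-kit+. The sum of the T and NK cell markers was mostly Nkg7, a gene of cytotoxic granules, at means of 1.42 TPM in WT c-kit- and 164 TPM in WT c-kit+ (log2 fold change 6.11, called higher). The part of these genes in the S100 values was not tested.

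The libraries labelled IRF7-/- c-kit+ were compared with WT c-kit+ to see how the c-kit+ fractions of the labelled and the WT leukemia differ. These leukemias were started from cells of different mice. The labelled loss of IRF7 therefore cannot be told apart from other differences between them. The study reported a larger share of c-kit+ cells in AML-IRF7-/- than in AML-WT, so these fractions are unlike parts of their leukemias. S100a8, S100a9 and S100a4 were lower in the libraries labelled IRF7-/- c-kit+, and no S100 gene was called higher. S100a8 was at −5.29 (SE 0.25) and S100a9 at −5.39 (SE 0.29), so their mean TPM were 0.0250 and 0.0233 times those of WT c-kit+. S100a4 was at −1.94 (SE 0.36), with a mean of 0.261 times. S100a10 was at 0.71 (SE 0.29), S100a6 at −0.24 (SE 0.22), S100a1 at −0.09 (SE 0.09), S100a11 at −0.05 (SE 0.10) and S100a13 at 0.09 (SE 0.06), none of them called. With each library left out in turn, S100a10 ran from 0.39 to 0.92. Thus 0 of 8 were called higher and 3 lower, against 6.3% and 5.39% of the 13238 genes tested. The groups did not overlap for 4 of the 8 genes, S100a4, S100a8, S100a9 and S100a10, and for 59.1% of all genes. The median log2 fold change was −0.16 for the 8 genes and 0.12 for all genes.

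All 9 later neutrophil genes were lower in each library labelled IRF7-/- c-kit+ than in each WT c-kit+ library, and 8 were called. Their sum was 397 to 712 TPM there. The monocyte genes summed to 2261 to 2860 TPM, and 1 of 4 was called, as lower. That sum was mostly Ly6c2, at a mean of 1994 TPM in WT c-kit+ and 2455 TPM in the labelled libraries, which was not called. Csf1r, at means of 50.9 and 28.9 TPM, was not called, and Cx3cr1, at 11.5 and 2.55 TPM, was the one called lower. Of the primary granule genes 1 of 4, Ctsg, was called, as higher. Their part in the S100a8 and S100a9 values was not tested.

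The third comparison, with WT c-kit-, shares 3 libraries with each of the others and is not independent of them. In it, 5 of the 8 genes were lower in the libraries labelled IRF7-/- c-kit+. S100a4 was at −7.15 (SE 0.35), S100a6 at −5.02 (SE 0.16), S100a10 at −3.25 (SE 0.26), S100a9 at −2.61 (SE 0.60) and S100a8 at −2.52 (SE 0.55). Without WT c-kit- library 3, S100a8 was at −1.85 and S100a9 at −1.87. S100a11 (0.64, SE 0.20), S100a1 (0.60, SE 0.09) and S100a13 (−0.22, SE 0.06) were not called. None of the 8 was called higher and 5 were called lower, where 8.4% and 11.9% of the 13510 genes tested were, and all 8 had groups that did not overlap, as did 67.1% of all genes. In this comparison all 9 later neutrophil genes and 3 of 4 monocyte genes were called lower, and all 4 primary granule genes higher.

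**Figure D3:**
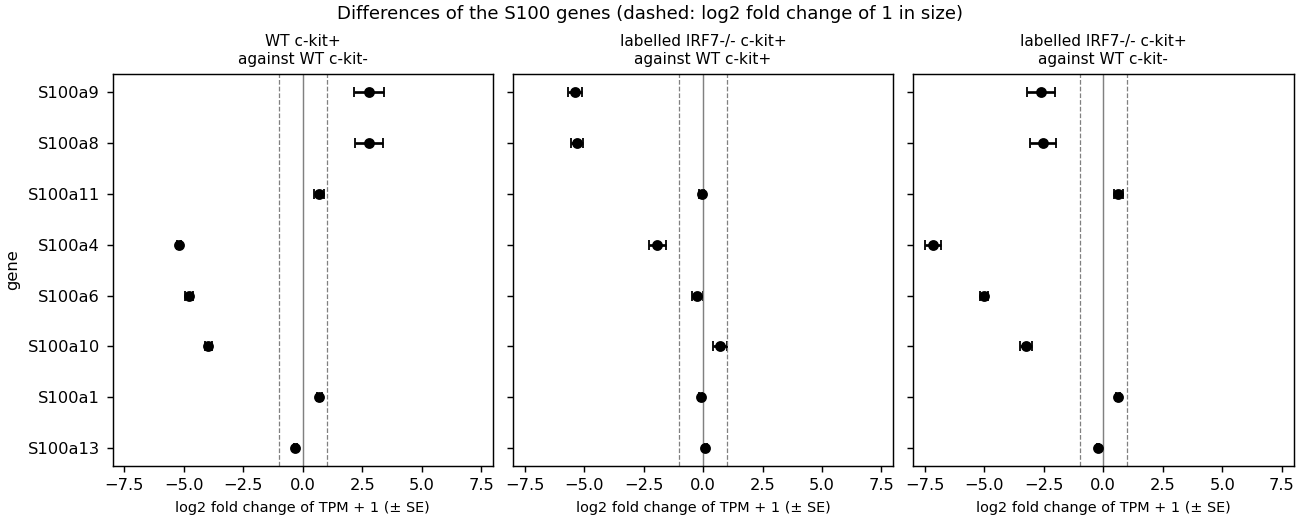
Log2 fold changes of TPM + 1 (points) with their standard errors (bars) for the 8 S100 genes in the 3 comparisons, with dashed lines at a change of 1 in either direction. S100a8 and S100a9 lie at 2.77 and 2.78 in the left panel and at −5.29 and −5.39 in the middle panel, while S100a6 and S100a10 lie far from 0 only in the panels against WT c-kit-.

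The other S100 genes were near or at 0. S100a2 and S100z were listed at 0 in all 9 libraries, and S100a5, between S100a4 and S100a6 on the chromosome, reached 0.35 TPM in 1 WT c-kit- library and 0 in the rest. S100a3 reached 0.47 TPM, S100a7a 0.19 TPM, S100a14 and S100a16 0.39 TPM, S100b 0.35 TPM and S100g 0.53 TPM at most. None of the 9 could be compared between groups. Of 7 fused S100 genes, which carry an S100 domain in a long skin protein, 1 passed the filter. Tchh, or trichohyalin, was at 0.57 to 0.71 TPM in WT c-kit-, at 1.08 to 1.59 TPM in WT c-kit+ and at 4.51 to 5.52 TPM in the libraries labelled IRF7-/- c-kit+. Between the last groups its log2 fold change was 1.43 (SE 0.15, limma adjusted p = 0.000551), called higher as were 6.3% of all genes tested. The list was drawn up with earlier results of these data known, so this is a description.

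The genes whose profile over the 9 libraries was most like that of an S100 gene were found by the root mean square difference of log2(TPM + 1), each gene centred on its own mean, among 10284 genes with a mean of at least 5 TPM. The closest gene to S100a8 was S100a9, and the reverse, with a difference of 0.077. Next to S100a8 came Lrg1 (0.187), a secreted glycoprotein gene, and Ngp (0.234), a neutrophilic granule protein gene. The same 2 genes came next for S100a9, with Ngp at 0.187 and Lrg1 at 0.249. Lrg1 stood at a mean of 18.2 TPM in WT c-kit-, 98.9 TPM in WT c-kit+ and 2.06 TPM in the libraries labelled IRF7-/- c-kit+, far below the S100 genes in level.

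S100a6 and S100a10 each had close genes, and S100a4 had none as close. For S100a6 they were Klra2 (0.224), Ccl6 (0.230), a chemokine gene, and Ms4a8a (0.324). For S100a10 they were Dusp22 (0.180), a phosphatase gene, Pira2 (0.232) and Cd300lg (0.263). For S100a4 they were Fn1, which encodes fibronectin, Rnase6 and Klf4, a transcription factor gene of monocytes, all at 0.537 to 0.551. With a pseudocount of 0.1 in place of 1, Klra2 and Ms4a8a were no longer among the 3 closest to S100a6. Fn1 and Klf4 were likewise lost for S100a4, and Cd300lg for S100a10. Klra2 and Ms4a8a had means under 1 TPM in both c-kit+ groups. Among the S100 genes themselves, S100a6 and S100a10 differed by 0.787, S100a4 and S100a6 by 0.992, and S100a4 and S100a10 by 1.64.

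S100a1, S100a11 and S100a13, which differed less between the groups, were closest to genes that also differed less. S100a13 was nearest to Rxrb, a nuclear receptor gene (0.043), Tcf25 (0.048) and Tbck (0.050). S100a1 was nearest to Ss18l2 (0.080), Slc48a1, a heme transporter gene (0.083), and Nbdy (0.085). S100a11 was nearest to Pi16 (0.121), Tnfrsf23 (0.132) and Peg13 (0.139). These genes were not all flat: Tnfrsf23 had means of 3.38 TPM in WT c-kit-, 7.03 TPM in WT c-kit+ and 6.27 TPM in the libraries labelled IRF7-/- c-kit+. These are descriptions over 9 libraries that the genes share.

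**Figure D4:**
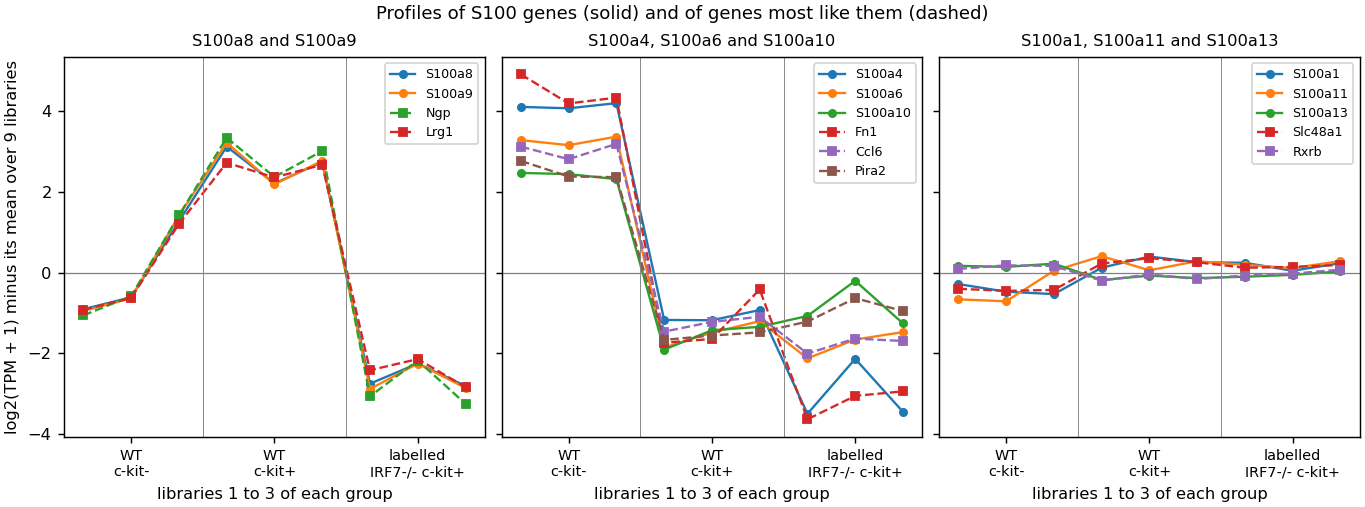
Log2(TPM + 1) minus its mean over the 9 libraries, for the S100 genes (solid lines, circles) and some of the genes most like them (dashed lines, squares), with libraries 1 to 3 of each group from left to right. S100a8 and S100a9 lie on each other, S100a4, S100a6 and S100a10 drop from WT c-kit- to both c-kit+ groups, and S100a1, S100a11 and S100a13 stay between −0.71 and 0.41.

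Genes for receptors, binding partners and regulators of S100 proteins were no part of the rule that chose the 8 genes. Their lists were drawn up with earlier results of these data known, so the counts and p-values below describe these libraries and are no independent support. Of 9 receptor genes 7 passed the filter. In WT c-kit+ against WT c-kit-, 1 of them was called higher and 3 lower, beside 4.83% and 9.61% of all genes, with a median log2 fold change of −0.05. In the libraries labelled IRF7-/- c-kit+ 0 were called higher and 2 lower than in WT c-kit+ (median −0.26), beside 6.3% and 5.39%, and 0 higher and 4 lower than in WT c-kit- (median −1.35), beside 8.4% and 11.9%. Cd36 and Mcam were under 1 TPM in all libraries.

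The parts of the TLR4 receptor complex went different ways. Tlr4 itself was at 3.40, 3.63 and 5.45 TPM in WT c-kit- and at 11.5, 7.94 and 8.45 TPM in WT c-kit+, a log2 fold change of 1.00 (SE 0.20, limma adjusted p = 0.00768). It fell short of the fold threshold without library 1 of WT c-kit+ or libraries 1 or 2 of WT c-kit-, at 0.85 to 0.94. Ly96, which encodes the MD-2 subunit that holds the ligand, was at 13.7, 12.3 and 13.8 TPM in WT c-kit- and at 1.87, 1.69 and 2.37 TPM in WT c-kit+, a log2 fold change of −2.27 (SE 0.13, limma adjusted p = 4.3e-05). Cd14, the coreceptor, was at 118, 178 and 205 TPM in WT c-kit-, at 53.9, 76.4 and 66.0 TPM in WT c-kit+ and at 8.12, 5.39 and 14.8 TPM in the libraries labelled IRF7-/- c-kit+. It was lower in WT c-kit+ than in WT c-kit- (−1.32, SE 0.22, limma adjusted p = 0.00347) and lower again in the labelled libraries (−2.76, SE 0.32, limma adjusted p = 0.000882). Tlr4 there, at 6.78 to 9.09 TPM, was not called against WT c-kit+ (−0.20, SE 0.16, limma adjusted p = 0.36).

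Ager, which encodes RAGE, was at 4.76 to 8.14 TPM in all 9 libraries and was called in no comparison. Bsg, which encodes the S100A9 receptor basigin, was at 226 to 250.1 TPM in the 6 WT libraries, and at 427, 355 and 425 TPM in the libraries labelled IRF7-/- c-kit+. That is a log2 fold change of 0.72 from WT c-kit+ (SE 0.09, limma adjusted p = 0.00101), which is under the fold threshold although the groups did not overlap. Nptn, which encodes neuroplastin, a relative of basigin, was lower in WT c-kit+ than in WT c-kit-, with a log2 fold change of −1.05 (SE 0.09, limma adjusted p = 0.000156). This call was lost under quantile normalization (−0.86) and without the 10 most abundant genes (−0.95). Alcam, an adhesion molecule gene, was at 11.9 to 16.9 TPM in the 6 WT libraries and at 1.07, 0.97 and 0.54 TPM in the libraries labelled IRF7-/- c-kit+ (log2 fold change against WT c-kit+ −3.07, SE 0.18, limma adjusted p = 7.14e-05).

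Of 19 genes for partners of S100 proteins, 14 passed the filter. In WT c-kit+ against WT c-kit- 0 were called higher and 3 lower (median −0.35), beside 4.83% and 9.61% of all genes. In the libraries labelled IRF7-/- c-kit+ 1 was called higher and 3 lower than in WT c-kit+ (median −0.38), beside 6.3% and 5.39%, and 1 higher and 5 lower than in WT c-kit- (median −0.85), beside 8.4% and 11.9%. Sugt1, Iqgap1 and Atp2a2 were called in no comparison. Fgf1 and Il1a, cargo of S100A13, and Plat, Syt1 and Ryr1 were below the filter.

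Of the partners of S100A10, Anxa2 and Ahnak were lower in both c-kit+ groups than in WT c-kit-. Anxa2, its annexin, was at 737, 713 and 817 TPM in WT c-kit-, at 285, 236 and 283 TPM in WT c-kit+ and at 179.9, 221 and 206 TPM in the libraries labelled IRF7-/- c-kit+. The log2 fold change from WT c-kit- to WT c-kit+ was −1.49 (SE 0.10, limma adjusted p = 6.58e-05), against −3.97 for S100a10. Ahnak, a giant scaffold protein gene, was at 249, 209 and 208 TPM in WT c-kit-, at 9.14, 12.1 and 10.7 TPM in WT c-kit+ and at 1.93, 2.33 and 2.28 TPM in the labelled libraries. Ahnak was lower in each step, with log2 fold changes of −4.26 (SE 0.12, limma adjusted p = 7.95e-06) and then of −1.87 (SE 0.13, limma adjusted p = 0.00016), whereas S100a10 was not lower in the labelled libraries than in WT c-kit+. Plaur, the urokinase receptor gene, was called in the labelled libraries against WT c-kit- (−1.62, SE 0.25, limma adjusted p = 0.00163) and in neither other comparison. In WT c-kit+ against WT c-kit- it was at −0.85, and at −1.08 and called without WT c-kit- library 1.

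The other annexins did not all follow. Anxa6 was at 180.1, 176 and 173 TPM in WT c-kit-, at 43.4, 47.1 and 46.6 TPM in WT c-kit+ and at 63.1, 69.6 and 63.2 TPM in the labelled libraries, a log2 fold change of −1.93 in the first comparison (SE 0.06, limma adjusted p = 8.84e-06). Anxa1, the S100A11 partner, was called in none of the 3 comparisons, and at −0.998 (SE 0.21, limma adjusted p = 0.00592) it lay just under the fold threshold in the labelled libraries against WT c-kit-. It passed that threshold under 5 alternatives: a pseudocount of 0.1, the 10 most abundant genes left out (−1.02), and the fits without labelled library 2 (−1.14) or without WT c-kit- library 1 or 2 (both −1.11). Anxa11, a partner of S100A6, was at 144, 109 and 135 TPM in WT c-kit+ and at 55.9, 63.5 and 62.7 TPM in the labelled libraries (−1.07, SE 0.11, limma adjusted p = 0.000606). That call was lost without WT c-kit+ library 1 (−0.99).

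For S100A6, Cacybp, the calcyclin binding protein gene, was at 40.8 to 51.9 TPM in WT c-kit-, at 43.5 to 51.0 TPM in WT c-kit+ and at 74.0, 81.2 and 75.0 TPM in the labelled libraries, 0.70 above WT c-kit+ on the log2 scale (SE 0.08, limma adjusted p = 0.00069) and not called. For S100A4, Myh9, the myosin heavy chain gene, was called in no comparison, and Ppfibp1, the liprin beta 1 gene, was at 8.89, 8.71 and 8.19 TPM in WT c-kit+ and at 19.4, 20.0 and 21.7 TPM in the labelled libraries (1.15, SE 0.08, limma adjusted p = 0.000161). It was the partner gene called higher.

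For S100A8 and S100A9, which bring arachidonic acid to the phagocyte NADPH oxidase, the catalytic subunit gene Cybb was at 371, 293 and 379.5 TPM in WT c-kit- and at 315, 213 and 312 TPM in WT c-kit+. In the libraries labelled IRF7-/- c-kit+ it was at 15.99, 38.9 and 13.9 TPM, −3.68 against WT c-kit+ (SE 0.37, limma adjusted p = 0.000554). Rac2, a small GTPase gene, was not called in that comparison (−0.36, SE 0.10, limma adjusted p = 0.0272).

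All 6 genes of transcription factors known to act on S100a8 and S100a9 passed the filter. In the group, 1 was called higher and 1 lower in WT c-kit+ against WT c-kit- (median −0.15), beside 4.83% and 9.61% of all genes. Against WT c-kit+, 0 were called higher and 1 lower in the labelled libraries (median −0.22), beside 6.3% and 5.39%, and against WT c-kit-, 1 higher and 1 lower (median −0.24), beside 8.4% and 11.9%. Cebpe, a factor needed for secondary granules, was at 25.5, 27.6 and 70.4 TPM in WT c-kit-, at 366, 269 and 334 TPM in WT c-kit+ and at 132, 139.8 and 135 TPM in the labelled libraries. It was higher in WT c-kit+ than in WT c-kit- (3.09, SE 0.37, limma adjusted p = 0.00084) and lower in the labelled libraries than in WT c-kit+ (−1.24, SE 0.11, limma adjusted p = 0.000355). Unlike S100a8 and S100a9, Cebpe was higher in the labelled libraries than in WT c-kit- (1.85, SE 0.36, limma adjusted p = 0.00425).

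Cebpb, a factor of monocytes and emergency granulopoiesis, was at 38.1, 29.8 and 39.3 TPM in WT c-kit- and at 12.3 to 15.1 TPM in the 6 c-kit+ libraries (−1.36 for WT c-kit+, SE 0.13, limma adjusted p = 0.000256). Cebpa, Cebpd, Spi1, which encodes PU.1, and Stat3 were called in no comparison. In the labelled libraries against WT c-kit+, Cebpa was at 0.67 (SE 0.11, limma adjusted p = 0.00374), Cebpd at −0.69 (SE 0.10, limma adjusted p = 0.00193) and Spi1 at −0.08 (SE 0.07, limma adjusted p = 0.362).

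**Figure D5:**
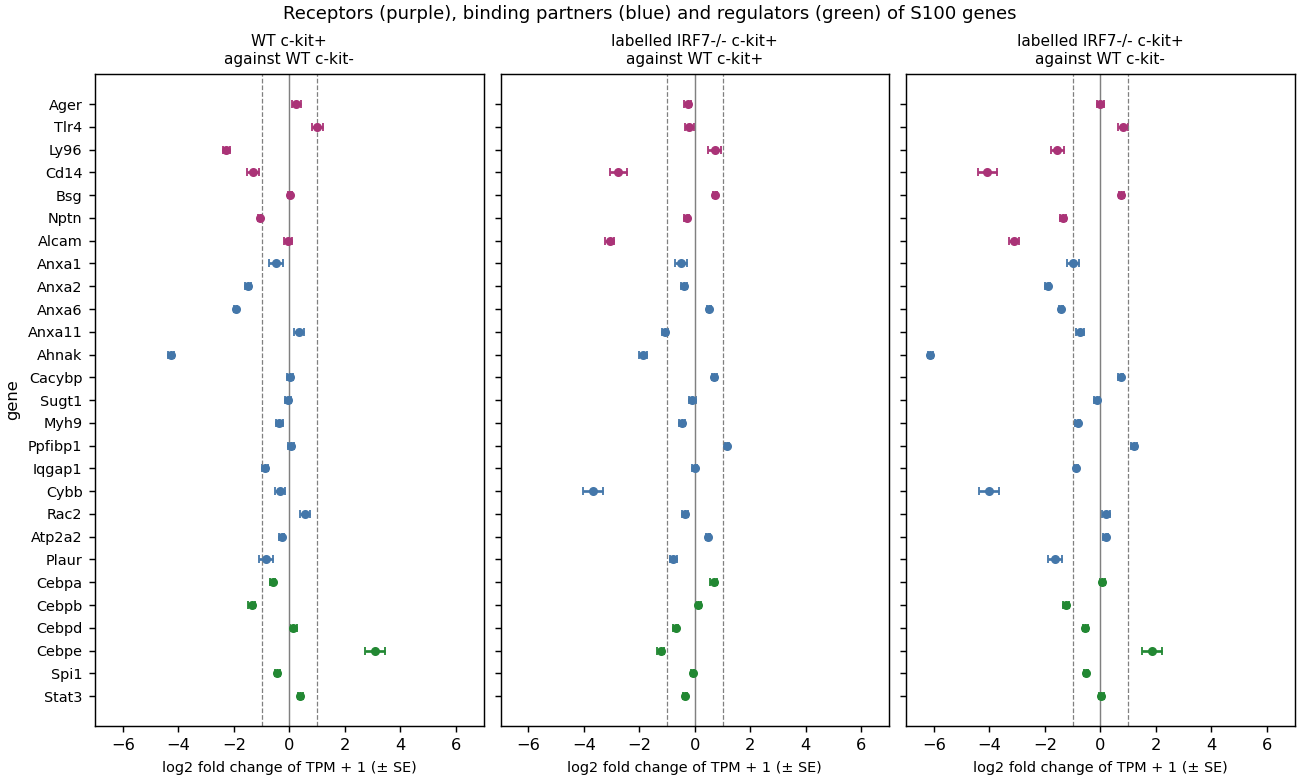
Log2 fold changes of TPM + 1 (points) with their standard errors (bars) in the 3 comparisons for 7 receptor genes (purple), 14 partner genes (blue) and 6 regulator genes (green) of S100 proteins that passed the filter, with dashed lines at a change of 1 in either direction. Ahnak is the lowest point of the left panel (−4.26), Cebpe its highest (3.09), and Cybb, Alcam and Cd14 are the lowest of the middle panel (−3.68, −3.07 and −2.76).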

How the data were processed

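RNA of 9 sorted leukemia samples was sequenced, and per the labels an Illumina TruSeq RNA kit (v2) was used for the libraries. The deposited table holds TPM of 55536 genes in 9 columns, which the authors had already aligned, quantified and scaled. Its header names no unit, and its columns sum to 987468 to 992231, from which the unit was taken. The study's methods call this experiment a microarray, whereas the labels describe sequencing libraries, and the labels were followed. The aligner, build, annotation and use of strand are not given in the sources used here. The column of WT c-kit+ replicate 3 has 1 digit too many in its name, which fits no other sample. All 9 samples were used, grouped by their labels.

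Groups were compared in pairs, each fit using the 6 libraries of the pair, with limma (version 3.58.1, R 4.3.3; lmFit, eBayes with trend) on log2(TPM + 1), a scale that understates changes of low genes, with Benjamini-Hochberg adjustment over all genes that reached 1 TPM in 3 or more of them. The code was tested on simulated data. A single-gene exact permutation test of 3 against 3 cannot go below p = 0.1 and was not used. Named genes were the S100 genes, Irf7, Kit, chromosomal neighbours, the 3 most alike genes per member, and from the receptor, partner and regulator lists the 4 largest changes per comparison, the annexins, Ahnak, Cacybp, Tlr4, Ager and Bsg; other list genes could be named with values. The members and lists were chosen with earlier results of these data known, and 1 further gene was left out of the partner list and is not reported here. Alternatives were no filter or one of 5 TPM, a pseudocount of 0.1, quantile normalization, the 10 most abundant genes left out, all 9 libraries in 1 fit, a replicate block, each library left out, and an unadjusted p. Python 3.11.15, pandas 2.3.3 and matplotlib 3.10.9 were used.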

Additional observations from a re-analysis of the deposited data

How the results depend on the processing

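The number of S100 genes called stayed at 5, 3 and 5 (WT c-kit+ against WT c-kit-, the libraries labelled IRF7-/- c-kit+ against WT c-kit+, and those against WT c-kit-) under each alternative but 1. With the 10 most abundant genes of the 6 libraries left out it was 3 in the first comparison and 1 in the second, because S100a8 and S100a9 are then among the genes left out. Of 332 alternative log2 fold changes of the 8 genes, 323 moved by less than the spread between replicates, 9 by more, and none of a called gene changed sign. These include settings that cannot change a log2 fold change here, so the 323 overstate how well the changes held. Those settings were no filter, the filter of 5 TPM, all 9 libraries in 1 fit, the replicate block and the unadjusted p. S100a11 and S100a13, not called in the second comparison, were on either side of 0, from −0.23 to 0.03 and from −0.02 to 0.12. Quantile normalization moved S100a8 to −4.70 and S100a9 to −4.88 there. In the first comparison it moved S100a13 from −0.31 to −0.13, so the size of that small difference depends on the scaling. The called receptor, partner and regulator genes numbered 8 to 9, 6 to 7 and 12 to 13. With a pseudocount of 0.1, 17 of the 24 most alike genes were the same. Klra2, Ms4a8a, Fn1, Klf4, Cd300lg, Tnfrsf23 and Tbck were not kept, among them the closest gene to S100a4 and to S100a6.

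For samples with the same replicate number, the correlations of their deviations from the group means ran from −0.071 to 0.237. For samples with different numbers they ran from −0.184 to 0.144, and most were below 0. In the comparisons with the labelled libraries, all same-number values were above 0, at 0.019 to 0.097. These values are small and the deviations within a group sum to 0, so they do not settle whether the numbers pair the samples. With the replicate block, the S100 genes called were 5, 3 and 5 as without it. The log2 fold changes could not differ, because every group holds the same replicate numbers, so their equality says nothing about pairing.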
